A study of Mus musculus with 22 samples.

Results

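Lymphomas of the MCL-like immunophenotype, which resemble mantle cell lymphoma, were set against the non-MCL primary lymphomas of the series that had little RNA of Vpreb1, a component of the surrogate light chain of pre-B cells. All 4 MCL-like primary libraries entered. A non-MCL primary entered where Vpreb1 lay under 100 CPM (a count scaled to a common library total) in each library of the mouse, which took 4 p53-only libraries from 3 mice. The comparison thus holds 8 of 22 libraries and 7 of 15 mice, and it asks how MCL-like tumours differ from the non-MCL tumours with least surrogate light chain RNA. The Vpreb1 values that chose the members are a description and carry no test. All of the p53-only libraries taken were far below the limit, at 2.02, 3.47, 4.82 and 5.45 CPM of Vpreb1, and the nearest library outside it, a p53-only thymoma, had 458 CPM. The limit was not applied to the MCL-like group, whose replicates 1 to 4 had 0.892, 1.69, 1.90 and 224 CPM. MCL-like replicate 4 was therefore above the limit that its counterparts had to meet.

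MCL-like primaries were labelled R26-Ccnd2tg/tg;p53fl/fl;Mb1Cretg/+, which is a homozygous transgene for cyclin D2 (Ccnd2) placed in Rosa26, together with floxed p53 alleles and a Cre transgene. The Vpreb1-low non-MCL primaries were all labelled p53fl/fl;Mb1Cretg/+ and carried no Ccnd2 transgene. Floxed p53 and Cre under the Mb1 (Cd79a) promoter, which acts from the earliest B lineage cells onward, were common to both groups, as was a mixed 129/C57Bl6 background. Genotype followed the group completely, so the phenotype and the transgene cannot be told apart. MCL-like replicate 1 was a mesenteric lymphoma and replicates 2, 3 and 4 came from the spleen. Among the p53-only mice, replicates 1 and 3 came from the spleen, and replicates 2 (spleen) and 5 (lymphoma, site not stated) came from one mouse and were summed. Outside the comparison, 6 non-MCL primary mice with more Vpreb1, 3 with the transgene and 3 without it, are called Vpreb1-high here and appear only as levels. Transplants grown in immunodeficient NSG mice, with the transgene genotype, give further levels. RNA was counted by tags from the 3′ end of transcripts, and the libraries held 3362923, 4739716, 3159419 and 3722220 counts in MCL-like replicates 1 to 4 and 3941838, 8993464 and 3472934 counts in the p53-only mice with replicate 1, replicates 2 and 5, and replicate 3. Values for each mouse follow in these orders. Levels are CPM with TMM scaling, which sets the bulk of genes equal across mice, and compare a gene between mice, not genes with each other.

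Mature B cells belong to several subsets. B1 cells, many of which carry Cd5, arise early in life and persist by self-renewal, mostly with unswitched immunoglobulin. Follicular B cells can enter germinal centres, where their immunoglobulin genes are mutated and can be switched. Mantle cell lymphoma in humans is a Cd5-positive lymphoma of mature B cells with a D-type cyclin expressed out of place, and signals from the B cell receptor reach NF-kB in such cells through a complex that holds Bcl10 and Malt1.

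Of the 11755 genes tested with edgeR (quasi-likelihood F test), 114 were called higher in MCL-like tumours (0.97% of those tested) and 65 lower (0.553%) at a Benjamini-Hochberg adjusted p under 0.05. Together these 179 genes are 1.52% of the tested genes, against 2238 at an unadjusted p under 0.05. Each of the 179 genes separated the MCL-like from the Vpreb1-low mice without overlap, as did 18.9% of all tested genes (9.34% with the MCL-like mice above and 9.51% with them below). The median log2 fold change of all tested genes was 0.02, and 63.7% of the calls were higher. With scaling by library size alone, 61 were higher and 55 lower, so that 52.6% were higher. The counts depended on single mice. They were 128 higher and 51 lower without MCL-like replicate 1, 52 and 18 without replicate 2, 56 and 21 without replicate 3, and 29 and 10 without replicate 4. They were 23 and 24 without p53-only replicate 1, 6 and 4 without the mouse of replicates 2 and 5, and 41 and 22 without replicate 3. Of the 38 called genes that the naming rule gave, 5 kept their call in all 17 alternative fits. These were Sox5, Arid3a and Adm among the higher genes and Reln and Bdh1 among the lower ones.

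Sox5, which encodes a transcription factor of the SoxD family (GRCm38 chromosome 6, 143828425 to 144781977), was high in each MCL-like tumour. It had 119, 60.6, 55.6 and 88.3 CPM in MCL-like primaries, against 2.52, 1.68 and 3.75 CPM in Vpreb1-low primaries. The MCL-like mice all lay far above the others (log2 fold change 4.97, SE 0.47, adjusted p = 0.00427 with edgeR). In Vpreb1-high primaries it was at 0 to 5.65 CPM. Arid3a, a transcription factor of B1 and other innate-like B cells, known also as Bright (chromosome 10, 79927043 to 79955018), had 494, 282, 461 and 354 CPM in MCL-like primaries, against 48.9, 32.0 and 49.3 CPM in Vpreb1-low primaries. The groups did not overlap, and no MCL-like tumour came near the highest Vpreb1-low value (log2 fold change 3.20, SE 0.35, adjusted p = 0.00764). The Vpreb1-high mice ranged over 28.4 to 185 CPM, with the highest value in a tumour that carries the Ccnd2 transgene. Adm, the gene of the peptide hormone adrenomedullin (chromosome 7, 110627661 to 110629820), had 131, 158, 85.6 and 316 CPM in MCL-like primaries, against 2.02, 6.21 and 1.44 CPM in Vpreb1-low primaries. MCL-like replicate 4 was the highest and all MCL-like mice lay above the Vpreb1-low mice (log2 fold change 5.63, SE 0.70, adjusted p = 0.0133, and log2 fold change 6.58 without the mouse of p53-only replicates 2 and 5).

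Genes of B1 cells were the list with the most calls among the B cell subsets. Of its 16 tested members 5 were called higher (31.2%, against 0.97% of all tested genes) and 0 lower. The median log2 fold change of the 16 was 1.82, against 0.02 over all tested genes. The lists were chosen with earlier results of these data known. Cd9, a tetraspanin found on B1 and marginal zone B cells, had 69.5, 34.1, 32.3 and 26.1 CPM in MCL-like primaries, against 2.02, 3.79 and 4.90 CPM in Vpreb1-low primaries (log2 fold change 3.49, SE 0.50, adjusted p = 0.0171 with edgeR). Bhlhe41, a repressor that maintains B1a cells in mice, had 179, 140.0, 188 and 148 CPM in MCL-like primaries, against 50.7, 25.0 and 56.8 CPM in Vpreb1-low primaries (log2 fold change 1.90, SE 0.34, adjusted p = 0.0380). For both genes the lowest MCL-like tumour stood above every Vpreb1-low tumour, although Bhlhe41 was present in all of them, whereas Vpreb1-high primaries had 0 to 39.5 CPM of it. Fcrl5, an Fc receptor-like protein of B1 and marginal zone B cells, had 15.6, 23.6, 27.7 and 108 CPM in MCL-like primaries, against 1.01, 2.63 and 1.15 CPM in Vpreb1-low primaries (log2 fold change 4.66, SE 0.83, adjusted p = 0.0413). Its highest value, in MCL-like replicate 4, set that mouse apart from the other MCL-like tumours, and the log2 fold change was 3.70 without it and 5.27 without the mouse of p53-only replicates 2 and 5. Zbtb32, a zinc finger repressor of activated and B1 cells, was named after its values were seen as the remaining called member of the list. It had 258, 229.5, 115 and 128 CPM in MCL-like primaries, against 11.4, 3.37 and 26.2 CPM in Vpreb1-low primaries (log2 fold change 3.77, SE 0.69, adjusted p = 0.0418). The list also had 5 calls without MCL-like replicate 1, where Nfatc1 was called and Zbtb32 was not. It had 2, 2 and 3 calls without MCL-like replicates 2, 3 and 4 in turn, 1 without p53-only replicate 1, 1 without the mouse of replicates 2 and 5, and 3 without replicate 3. Their highest adjusted p over all alternatives were 0.0736 for Cd9, 0.467 for Bhlhe41, 0.123 for Fcrl5 and 0.134 for Zbtb32, against 0.0475 for Arid3a.

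Cd5, the surface glycoprotein by which B1a cells and mantle cell lymphoma are recognised, did not pass the threshold against these tumours. It had 54.6, 39.4, 25.0 and 26.6 CPM in MCL-like primaries, against 1.51, 9.57 and 21.6 CPM in Vpreb1-low primaries, and the lowest MCL-like value, in replicate 3, stood just above p53-only replicate 3 (log2 fold change 1.75, SE 0.71, adjusted p = 0.225 with edgeR). Vpreb1-high primaries had 0 to 35.4 CPM of Cd5, with a median of 0.415 CPM. The highest of them, Ccnd2 non-MCL replicate 3, lay above MCL-like replicates 3 and 4. Nfatc1, a factor of B1a cells that belongs to the B1 list, did not reach the threshold either, at 72.2, 559, 362 and 363 CPM in MCL-like primaries, against 57.5, 46.4 and 101 CPM in Vpreb1-low primaries (log2 fold change 2.31, SE 0.63, adjusted p = 0.103). MCL-like replicate 1 lay inside the Vpreb1-low range, the other MCL-like mice lay above it, and Nfatc1 was called in the fit without replicate 1.

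**Figure D1:**
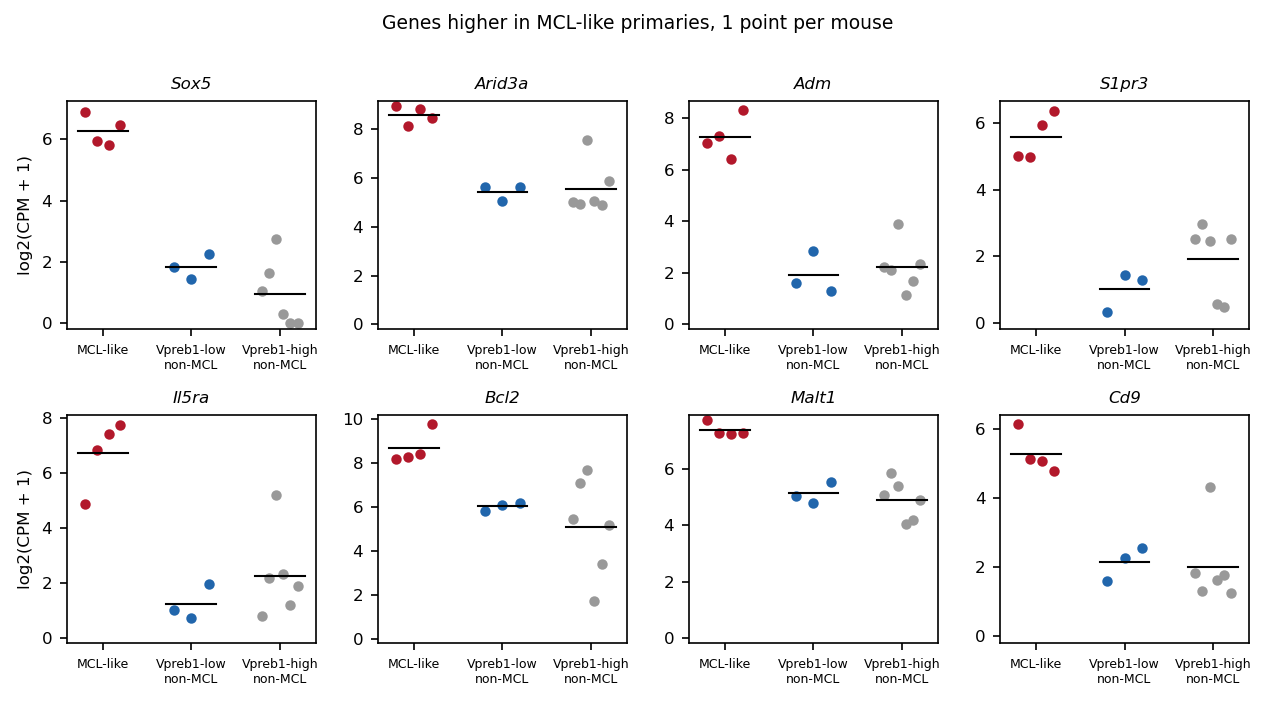
Level of 8 genes called higher in MCL-like primaries, as log2(CPM + 1) with TMM scaling, for MCL-like (red, n = 4 mice), Vpreb1-low non-MCL (blue, n = 3 mice) and Vpreb1-high non-MCL primaries (grey, n = 6 mice), with 1 point per mouse and a black line at the mean. In every panel the MCL-like points lie above all Vpreb1-low points, and in every panel except that of Il5ra also above all Vpreb1-high points.

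Receptors for chemokines, lipids and cytokines were among the genes with the widest separation. Il5ra encodes the alpha chain of the interleukin 5 receptor, which in mice sustains B1 cells (chromosome 6, 106710357 to 106749037). It had 28.7, 113, 169.9 and 215 CPM in MCL-like primaries, against 1.01, 0.631 and 2.88 CPM in Vpreb1-low primaries. MCL-like replicate 1 was the lowest of its group and still above each Vpreb1-low tumour (log2 fold change 6.57, SE 0.89, adjusted p = 0.0171 with edgeR, and log2 fold change 7.33 without p53-only replicate 3). S1pr3, a receptor for sphingosine 1-phosphate found on marginal zone B cells, had 31.1, 30.9, 61.2 and 81.7 CPM in MCL-like primaries, against 0.252, 1.68 and 1.44 CPM in Vpreb1-low primaries (log2 fold change 5.40, SE 0.65, adjusted p = 0.00949). S1pr1, the receptor for the same lipid by which lymphocytes leave lymphoid organs, had 81.6, 236, 202 and 102 CPM in MCL-like primaries, against 22.5, 24.2 and 34.0 CPM in Vpreb1-low primaries (log2 fold change 2.53, SE 0.44, adjusted p = 0.0342). It was present in both groups at different levels, whereas S1pr3 was near 0 in the Vpreb1-low tumours. Ackr2, a decoy receptor that takes up inflammatory chemokines, had 8.30, 40.5, 37.5 and 33.7 CPM in MCL-like primaries and 0, 0.210 and 0 CPM in Vpreb1-low primaries. This rested on 463 counts in MCL-like libraries and 2 counts in Vpreb1-low libraries, a ratio of 267 per count total with a 95% counting interval of 73.6 to 2214 (log2 fold change 7.78, SE 0.92, adjusted p = 0.00887). Of 14 tested homing and adhesion receptors these last 3 were called higher (21.4%, against 0.97% of all tested genes) and 0 lower. The median log2 fold change of the list was 0.999. Cxcr4, which retains B cells in the marrow and follicle, did not reach the threshold at 157, 78.8, 33.6 and 85.0 CPM in MCL-like and 139, 178 and 174 CPM in Vpreb1-low primaries (log2 fold change -0.89, SE 0.44, adjusted p = 0.299), and it was named after its values were seen. Leaving out the mouse of p53-only replicates 2 and 5 ended the calls of Il5ra, S1pr3, S1pr1 and Ackr2, leaving out p53-only replicate 1 those of Il5ra and S1pr1, and leaving out p53-only replicate 3 or MCL-like replicate 2, 3 or 4 that of S1pr1. Their highest adjusted p over all alternatives were 0.0737 for Il5ra, 0.0519 for S1pr3, 0.105 for S1pr1 and 0.0579 for Ackr2.

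In the pathway from the B cell receptor to NF-kB, Bcl10 and Malt1, which act together in a complex, were higher. Malt1, the protease of that complex (chromosome 18, 65430938 to 65479067), had 212, 155, 153 and 156 CPM in MCL-like primaries, against 32.3, 26.6 and 46.1 CPM in Vpreb1-low primaries. Each MCL-like tumour had more than 3 times the highest Vpreb1-low value (log2 fold change 2.27, SE 0.31, adjusted p = 0.0134 with edgeR). Bcl10, the adaptor that binds Malt1, had 114, 129, 99.4 and 117 CPM in MCL-like primaries, against 28.8, 36.0 and 57.1 CPM in Vpreb1-low primaries (log2 fold change 1.501, SE 0.31, adjusted p = 0.0490). Of 23 tested genes of B cell receptor signalling, Malt1 and Bcl10 were called higher (8.7%, against 0.97% of all tested genes) and 0 lower. The list had a median of 0.75, and 19 members had a positive log2 fold change. Downstream, 0 of 22 NF-kB members and targets were called with edgeR, with a median of 0.73 and 20 positive members. The one with the lowest adjusted p was Ebi3, a subunit of interleukins 27 and 35, at 129.6, 85.5, 11.2 and 89.9 CPM in MCL-like primaries, against 2.27, 9.05 and 11.0 CPM in Vpreb1-low primaries (log2 fold change 3.40, SE 0.83, adjusted p = 0.0818). MCL-like replicate 3 was close to the highest Vpreb1-low tumour for Ebi3. Of 13 genes of the early response to the receptor, 0 were called. The call of Malt1 was lost without p53-only replicate 1 and without the mouse of replicates 2 and 5 (highest adjusted p 0.0653), and that of Bcl10 in every fit that left out a mouse (highest adjusted p 0.142).

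Bcl2, which protects cells from the mitochondrial path of cell death, had 289, 309, 345 and 873 CPM in MCL-like primaries, against 55.2, 67.8 and 72.1 CPM in Vpreb1-low primaries. The Vpreb1-low tumours were close to each other and each MCL-like tumour had several times their level, with replicate 4 the highest (log2 fold change 2.80, SE 0.46, adjusted p = 0.0282 with edgeR). It was the only member called of 11 tested genes of the Bcl2 family (9.09%, against 0.97% of all tested genes). The median log2 fold change of the family was -0.25. Mcl1, a relative with the same protective role, had 1141, 993, 651 and 770.4 CPM in MCL-like primaries and 319, 2013 and 2161 CPM in Vpreb1-low primaries, with overlapping groups (log2 fold change -0.75, SE 0.56, adjusted p = 0.497). It was named after its values were seen. In Vpreb1-high primaries Bcl2 ranged over 2.35 to 204 CPM. Its call was lost without any one of the p53-only mice (highest adjusted p 0.0953). Cd37, a tetraspanin of mature B cells, had 688, 556, 817 and 999 CPM in MCL-like primaries, against 207, 158 and 203 CPM in Vpreb1-low primaries (log2 fold change 2.01, SE 0.31, adjusted p = 0.0250). It was the only called member of the 16 general B cell genes (6.25%, against 0.97% of all tested genes). Their median log2 fold change was 0.93, and the call of Cd37 was lost without MCL-like replicate 4 or any one p53-only mouse (highest adjusted p 0.0924). Crbn, encoding cereblon, which directs a ubiquitin ligase to its substrates and is the target of immunomodulatory drugs in humans (chromosome 6, 106780201 to 106800077), had 55.7, 86.2, 69.5 and 64.8 CPM in MCL-like primaries, against 25.7, 19.9 and 26.5 CPM in Vpreb1-low primaries (log2 fold change 1.52, SE 0.29, adjusted p = 0.0418). Its gene lies near Il5ra, which ends at 106749037 on the same chromosome. The call of Crbn was lost in every fit that left out a mouse other than MCL-like replicate 1 (highest adjusted p 0.118).

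Several of the higher genes with the widest fold changes have no settled role in B cells. Fras1, an extracellular matrix protein of epithelial basement membranes, had 225, 219, 192 and 600.0 CPM in MCL-like primaries, against 2.77, 0 and 0 CPM in Vpreb1-low primaries (log2 fold change 8.58, SE 1.23, adjusted p = 0.0227 with edgeR). All 11 of its counts in the Vpreb1-low group came from p53-only replicate 1, and MCL-like replicate 4 stood above the rest. Its fold change, 384-fold with all Vpreb1-low mice in the fit, thus rests on that mouse. The other Vpreb1-low libraries held 0 counts, and over them alone a floor of 3 counts gives at least 1405-fold. That value is not a lower bound for the whole group. The fitted log2 fold change was 7.69 without the mouse of replicates 2 and 5. Neurod4, a transcription factor of developing neurons, had 11.4, 10.2, 11.9 and 7.77 CPM in MCL-like primaries and 0 counts in all Vpreb1-low libraries, which makes it at least 57.0-fold higher by a floor of 3 counts over the group (adjusted p = 0.0133). St8sia6, a sialyltransferase, had 262, 50.8, 60.9 and 64.5 CPM in MCL-like primaries, against 0.252, 2.21 and 3.46 CPM in Vpreb1-low primaries (log2 fold change 5.77, SE 0.93, adjusted p = 0.0316). Camk2n1, an inhibitor of the calcium and calmodulin dependent kinase II, had 34.9, 175, 249.6 and 124 CPM in MCL-like primaries, against 7.57, 2.84 and 6.92 CPM in Vpreb1-low primaries (log2 fold change 4.69, SE 0.73, adjusted p = 0.0282). MCL-like replicate 1 was the highest of all for St8sia6, whose log2 fold change was 4.88 without it, and the lowest of its group for Camk2n1. Ahnak2, a large scaffold protein, was at 23.7 to 87.3 CPM in MCL-like and 0.316 to 2.27 CPM in Vpreb1-low primaries, Kndc1 at 4.28 to 18.3 CPM in MCL-like and 0 to 0.421 CPM in Vpreb1-low primaries, Rap1gap at 1.65 to 23.2 CPM in MCL-like and 0 to 0.577 CPM in Vpreb1-low primaries, and Tcte2 at 4.71 to 26.0 CPM in MCL-like and 0 to 1.01 CPM in Vpreb1-low primaries. Among Vpreb1-high primaries, Ccnd2 non-MCL replicate 3 had the highest level of each of these genes. It had 92.1 CPM of Fras1, 25.3 CPM of St8sia6, 18.8 CPM of Ahnak2, 16.5 CPM of Camk2n1 and 3.10 CPM of Neurod4. Its Kndc1, Tcte2 and Rap1gap, at 11.4, 8.43 and 7.21 CPM, lay inside the MCL-like ranges. Without the mouse of p53-only replicates 2 and 5 the calls of Fras1, Neurod4, St8sia6, Camk2n1, Ahnak2, Kndc1, Rap1gap and Tcte2 were all lost. Those of Camk2n1, St8sia6, Kndc1 and Rap1gap were lost without p53-only replicate 1, and those of all but Neurod4 and Ahnak2 without replicate 3. Without MCL-like replicate 4 the calls of Camk2n1, St8sia6, Kndc1 and Tcte2 were lost. Without replicate 2 those of Camk2n1, Kndc1 and Tcte2 were lost, and without replicate 3 that of Tcte2. Rap1gap had a result in only 13 of the alternative fits and was called in 6 of them. It was untested in the remaining fits, so a kept call without each MCL-like mouse is not claimed for Rap1gap.

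Not all calls are separate genes, since 12 called gene models lie inside or overlap another called gene. Within Camk2d, a subunit of calmodulin-dependent kinase II (chromosome 3, 126596302 to 126846326), lie 6 called models without a protein name, at 5.88 to 84.8 CPM in MCL-like and 0 to 3.75 CPM in Vpreb1-low primaries. Camk2d itself had 299, 527, 285 and 645 CPM in MCL-like primaries, against 40.9, 36.2 and 98.9 CPM in Vpreb1-low primaries (log2 fold change 2.91, SE 0.49, adjusted p = 0.0316 with edgeR). All 7 loci were called higher, and the call of Camk2d was lost without MCL-like replicates 2 or 4, p53-only replicate 1 or the mouse of replicates 2 and 5 (highest adjusted p 0.103). Likewise Gm44068 lies within Sox5 (chromosome 6, 143988740 to 143990867), with 6.91 to 17.9 CPM in MCL-like and 0 to 0.252 CPM in Vpreb1-low primaries. The strand setting of the counts is not given in the sources used here, so tags of such nested models and of their hosts cannot be told apart, and these genes were named after their values were seen.

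Immunoglobulin constant genes give the class of an antibody, and among them Ighg1 and Igha were called lower. Ighg1 (chromosome 12, 113325240 to 113330523) had 0.691, 0.445, 0 and 0.471 CPM in MCL-like primaries, against 271, 579 and 289.8 CPM in Vpreb1-low primaries. That is 6 counts over all MCL-like libraries and 7587 over the Vpreb1-low libraries (log2 fold change -9.77, SE 0.58, adjusted p = 1.74e-04 with edgeR), the lowest adjusted p of the comparison. Igha, the class of mucosal antibodies, had 8.99, 2.45, 17.8 and 10.1 CPM in MCL-like primaries, against 196, 100 and 134 CPM in Vpreb1-low primaries (log2 fold change -3.87, SE 0.56, adjusted p = 0.0213). Both were lower in every MCL-like tumour than in any Vpreb1-low tumour. Vpreb1-high primaries had 0 to 168 CPM of Ighg1 and 9.86 to 322 CPM of Igha, with medians of 1.22 and 28.5 CPM. Low Ighg1 was thus not particular to MCL-like tumours. Other switched classes were not called or not tested. Ighg2b had 27.0, 3.56, 1.98 and 6.59 CPM in MCL-like primaries, against 52.0, 304 and 4964 CPM in Vpreb1-low primaries (log2 fold change -7.52, SE 1.65, adjusted p = 0.0643), and Ighg2c had 14.9, 0, 0 and 10.6 CPM in MCL-like primaries, against 41.6, 115 and 107 CPM in Vpreb1-low primaries (log2 fold change -3.80, SE 1.22, adjusted p = 0.147). Ighe did not pass the filter on low counts, with 0, 0, 0.329 and 0 CPM in MCL-like primaries, against 0.252, 242 and 117 CPM in Vpreb1-low primaries. The p53-only mice differed among themselves here, with Ighg2b highest in replicate 3 and Ighe near 0 in replicate 1. Ighg3, which B1 cells also make, was highest in MCL-like replicate 1, at 257, 0.445, 4.94 and 23.1 CPM in MCL-like and 14.6, 3.26 and 21.3 CPM in Vpreb1-low primaries.

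Ighm, the unswitched class, was plentiful in both groups, at 12366, 4486, 2428 and 7408 CPM in MCL-like primaries, against 2415, 1249 and 979.6 CPM in Vpreb1-low primaries. The lowest MCL-like value, in replicate 3, lay just above that of p53-only replicate 1, and the difference missed the threshold (log2 fold change 2.11, SE 0.60, adjusted p = 0.106 with edgeR). Ighd had 20.05, 91.0, 28.6 and 81.0 CPM in MCL-like primaries, against 35.8, 5.89 and 50.5 CPM in Vpreb1-low primaries, with overlap (log2 fold change 0.86, SE 0.75, adjusted p = 0.564). The light chain gene Igkc was at 1949 to 14206 CPM in MCL-like and 2229 to 5119.9 CPM in Vpreb1-low primaries, so light chain RNA was present in all 7 mice. Of 11 tested constant genes 0 were higher and 2 lower (18.2%, against 0.553% of all tested genes). The median of 0.86 has the opposite sign to both calls, since it is set by the light chain genes, Ighm and others with positive values. The call of Ighg1 was lost in the fit that shared its spread over all 13 primary mice (adjusted p = 0.0682), and it was kept in all 7 fits that left out a mouse. That of Igha was also lost without MCL-like replicate 4, p53-only replicate 1 or the mouse of replicates 2 and 5 (highest adjusted p 0.102). Bulk RNA does not show whether the tumour cells or other B lineage cells in the sample carried these classes, and fewer such cells and less RNA per cell cannot be told apart. Tags of the near-identical Ighg genes, and of the lambda genes, may also be shared in such counts.

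**Figure D2:**
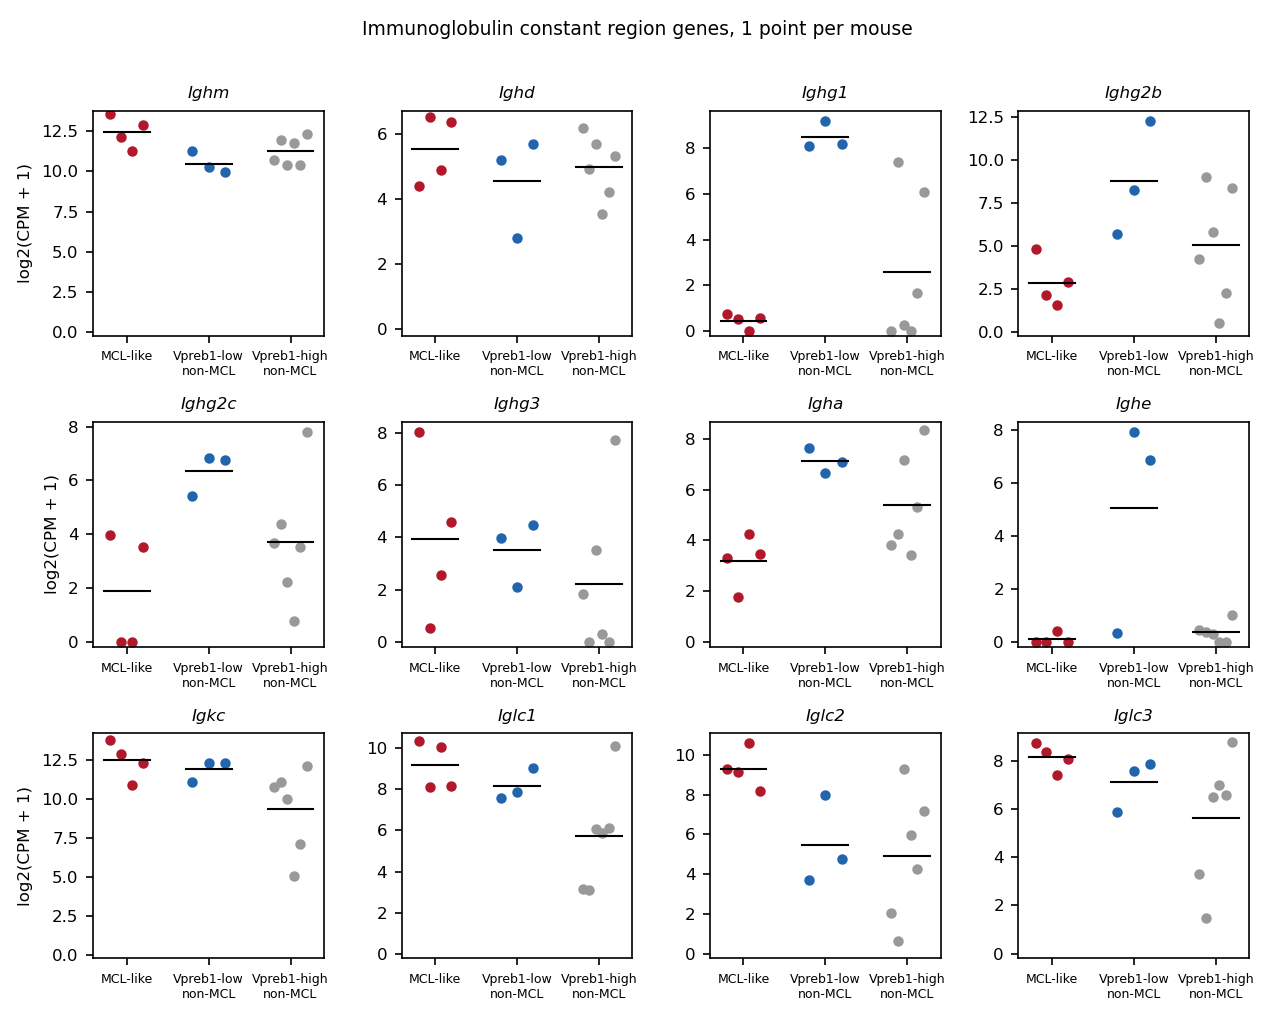
Level of 12 immunoglobulin constant region genes, as log2(CPM + 1) with TMM scaling, with 1 point per mouse, for MCL-like (red, n = 4), Vpreb1-low non-MCL (blue, n = 3) and Vpreb1-high non-MCL primaries (grey, n = 6), and a black line at the mean. MCL-like points for Ighg1 stay under 1 CPM while the Vpreb1-low points lie between 271 and 579 CPM.

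Genes of the germinal centre, a site but not the only site of class switching, followed the same division only in part. Efnb1, a ligand of Eph receptors expressed by germinal centre B cells, had 8.30, 3.56, 1.65 and 9.42 CPM in MCL-like primaries, against 66.6, 62.9 and 40.1 CPM in Vpreb1-low primaries, with no overlap (log2 fold change -3.29, SE 0.53, adjusted p = 0.0282 with edgeR). Vpreb1-high primaries had 1.88 to 23.8 CPM of Efnb1, with a median of 3.63 CPM, so its low level was not particular to MCL-like tumours. The 9 tested members of the list had a median log2 fold change of -2.23. Of them Efnb1 was called lower (11.1%, against 0.553% of all tested genes) and 0 higher. Its call was lost without MCL-like replicates 2 or 4, p53-only replicate 1 or the mouse of replicates 2 and 5 (highest adjusted p 0.0804). Other members, described after their values were seen, divided the Vpreb1-low mice. Bcl6, the repressor that sets the germinal centre state, had 3.11, 5.79, 9.55 and 7.06 CPM in MCL-like primaries, against 2.02, 46.8 and 41.2 CPM in Vpreb1-low primaries (log2 fold change -2.23, SE 0.83, adjusted p = 0.191). S1pr2, which keeps cells within the germinal centre, had 8.99, 5.57, 1.32 and 4.47 CPM in MCL-like primaries, against 7.82, 56.7 and 26.8 CPM in Vpreb1-low primaries (log2 fold change -2.59, SE 0.72, adjusted p = 0.106). Both were highest in the mouse of replicates 2 and 5 and lower in replicate 3, while p53-only replicate 1 lay below the highest MCL-like tumour. Rgs13, a regulator of chemokine receptor signals in germinal centre cells that did not pass the filter, was at 0, 0, 0 and 0.942 CPM in MCL-like and 0, 133 and 18.7 CPM in Vpreb1-low primaries. In words, the Vpreb1-low group held 1 mouse with the highest levels of Bcl6, S1pr2 and Rgs13. A further mouse had lower levels, though close to these for Bcl6, that still lay above every MCL-like tumour. The remaining mouse, p53-only replicate 1, lay within or below the MCL-like range, and its S1pr2 was above all MCL-like tumours except replicate 1.

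The markers of B cells were present in all tumours, with p53-only replicate 1 as the exception for part of them. Ms4a1, which encodes CD20, had 2296, 945, 1457 and 1226 CPM in MCL-like primaries, against 54.0, 514 and 418 CPM in Vpreb1-low primaries (log2 fold change 2.17, SE 0.69, adjusted p = 0.141 with edgeR). Replicate 1 was the lowest p53-only mouse. Pax5, the factor that fixes B cell identity, had 217, 216, 602 and 536 CPM in MCL-like primaries, against 286, 461 and 449.6 CPM in Vpreb1-low primaries. H2-Aa, a chain of the MHC class II molecules by which mature B cells present antigen, had 3746, 3415, 924 and 2249.8 CPM in MCL-like primaries, against 426, 1334 and 2714 CPM in Vpreb1-low primaries, whereas Vpreb1-high primaries had 21.1 to 230.3 CPM. It was lowest in p53-only replicate 1, and the MCL-like and Vpreb1-low groups overlapped. Of 11 MHC class II genes 0 were called with edgeR, with a median log2 fold change of 0.66. Cd79a, whose promoter drives the Cre, had only 7.95, 7.35, 7.24 and 17.4 CPM in MCL-like and 5.05, 23.8 and 8.36 CPM in Vpreb1-low primaries, although its partner Cd79b had 761, 760.0, 600.2 and 613 CPM in MCL-like and 222, 553 and 403 CPM in Vpreb1-low primaries.

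Early B cell genes are described without a test, since Vpreb1 chose the members. Vpreb3, a chaperone of the pre-B cell receptor, had 111, 37.2, 53.3 and 45.9 CPM in MCL-like primaries, against 149, 191 and 317 CPM in Vpreb1-low primaries. Sox4, a transcription factor of early lymphocytes, had 6.91, 1.34, 1.98 and 15.8 CPM in MCL-like primaries, against 83.8, 27.99 and 34.3 CPM in Vpreb1-low primaries, whereas Vpreb1-high primaries had 225 to 513 CPM. Il7r, a receptor for the growth factor of early B cells, had 12.1, 24.0, 56.6 and 52.3 CPM in MCL-like primaries, against 159.7, 27.4 and 74.98 CPM in Vpreb1-low primaries. For Sox4 and Il7r the highest value of all 7 mice was in p53-only replicate 1. Rag1, a recombinase of immunoglobulin genes, was at 0 to 0.329 CPM in MCL-like and 1.68 to 8.65 CPM in Vpreb1-low primaries, against 48.2 to 316 CPM in Vpreb1-high primaries. Igll1, the other surrogate light chain component, was at 0.346, 0.890, 0.988 and 26.6 CPM in MCL-like and 1.51, 1.47 and 0.577 CPM in Vpreb1-low primaries, so the excess in MCL-like replicate 4 was seen for this gene as well as for Vpreb1.

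Among subset genes outside the B1 list, 1 of 12 follicular genes was called higher (S1pr1, 8.33%). So was 1 of 8 marginal zone genes (S1pr3, 12.5%), against 0.97% of all tested genes. In both lists 0 were called lower, and the medians were 0.55 and 0.54. Of 11 plasma cell genes 0 were called with edgeR, with a median of 0.82. Prdm1, the factor that drives plasma cell formation and is also expressed in B1 cells, had 83.3, 42.5, 55.0 and 49.7 CPM in MCL-like primaries, against 4.04, 13.9 and 19.6 CPM in Vpreb1-low primaries. Its groups did not overlap, but it missed the threshold (log2 fold change 2.20, SE 0.51, adjusted p = 0.0643).

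Outside the immunoglobulin genes, the largest decrease among called genes with a mean of 10 CPM or more in Vpreb1-low primaries was that of Reln, which encodes the extracellular protein reelin (chromosome 5, 21884454 to 22344702). Reln had 3.11, 4.45, 5.27 and 1.88 CPM in MCL-like primaries, against 99.6, 365 and 142 CPM in Vpreb1-low primaries. No MCL-like tumour came near the lowest Vpreb1-low value (log2 fold change -5.78, SE 0.56, adjusted p = 0.00471 with edgeR, and log2 fold change -5.05 without the mouse of p53-only replicates 2 and 5), and Vpreb1-high primaries had 10.1 to 1047 CPM. Bdh1, a mitochondrial enzyme of ketone body metabolism, had 8.64, 5.79, 5.60 and 4.24 CPM in MCL-like primaries, against 45.4, 54.3 and 67.5 CPM in Vpreb1-low primaries (log2 fold change -3.20, SE 0.35, adjusted p = 0.00764). Bcat1, which transfers the amino group of branched-chain amino acids, had 2.77, 3.12, 1.98 and 10.8 CPM in MCL-like primaries, against 54.7, 68.2 and 102 CPM in Vpreb1-low primaries (log2 fold change -3.96, SE 0.58, adjusted p = 0.0195, and log2 fold change -4.82 without MCL-like replicate 4). The groups stood apart for both, and the Vpreb1-high primaries, at 44.0 to 124 CPM for Bdh1 and 50.1 to 112 CPM for Bcat1, lay with the Vpreb1-low tumours. Nt5dc2, a protein of the 5′-nucleotidase family, had 11.4, 7.79, 10.2 and 19.5 CPM in MCL-like and 110.2, 80.9 and 66.6 CPM in Vpreb1-low primaries (log2 fold change -2.81, SE 0.37, adjusted p = 0.0133). Frat2, an inhibitor of the kinase GSK3, was at 6.46 to 8.30 CPM in MCL-like and 30.0 to 94.6 CPM in Vpreb1-low primaries, Tle1, a corepressor, at 0.691 to 3.12 CPM in MCL-like and 9.80 to 22.9 CPM in Vpreb1-low primaries, and Endog, a mitochondrial nuclease, at 2.23 to 5.60 CPM in MCL-like and 21.3 to 37.8 CPM in Vpreb1-low primaries. Cdca7l, a partner of Myc, was at 6.23 to 20.7 CPM in MCL-like and 54.1 to 254 CPM in Vpreb1-low primaries, Csrp2 at 2.004 to 9.42 CPM in MCL-like and 28.001 to 133 CPM in Vpreb1-low primaries, Myl4 at 3.46 to 13.4 CPM in MCL-like and 22.2 to 146 CPM in Vpreb1-low primaries, and Gk5 at 0.668 to 2.59 CPM in MCL-like and 7.21 to 17.2 CPM in Vpreb1-low primaries. Apart from Reln and Bdh1, each of these calls was lost without the mouse of p53-only replicates 2 and 5. Those of Endog, Tle1, Cdca7l, Csrp2, Myl4 and Gk5 were also lost without p53-only replicate 1 or MCL-like replicate 4, that of Frat2 without MCL-like replicate 4, that of Bcat1 without replicate 2, and those of Tle1, Cdca7l, Csrp2, Myl4 and Gk5 without replicate 2 or 3. Leaving out MCL-like replicate 1 ended the calls of Cdca7l, Csrp2, Myl4 and Gk5, and leaving out p53-only replicate 3 those of Cdca7l, Csrp2 and Gk5.

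**Figure D3:**
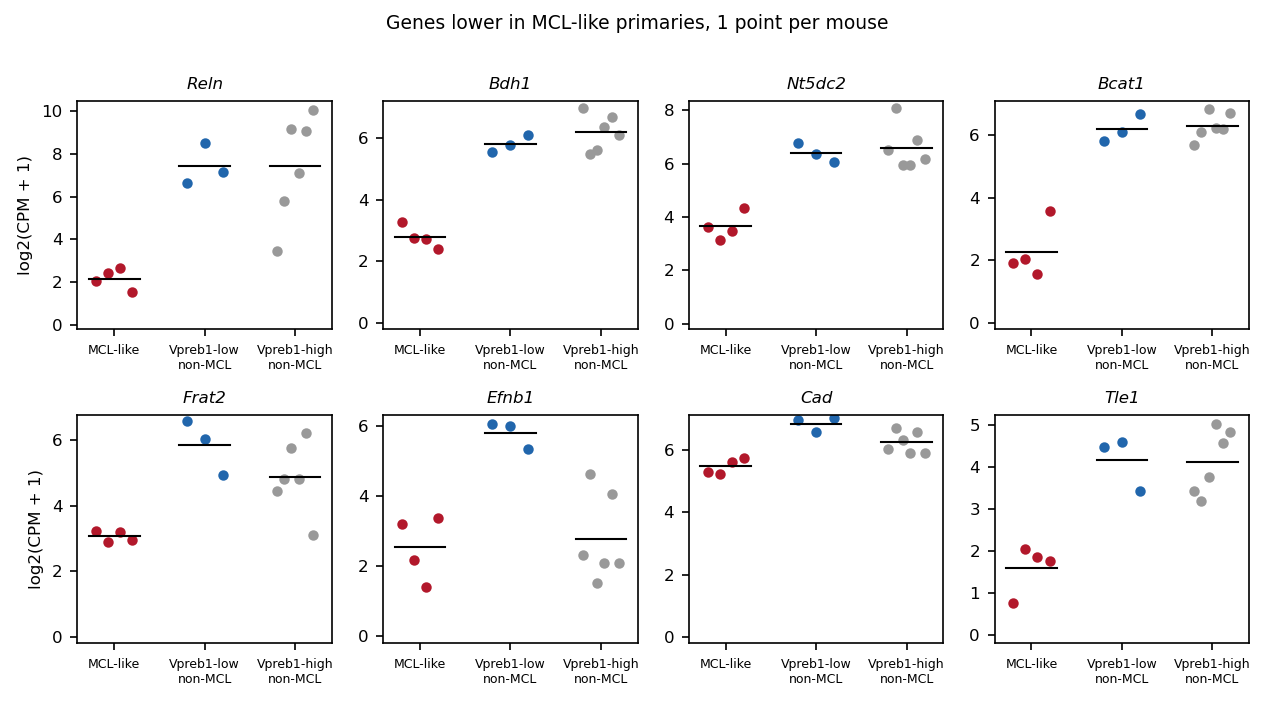
Level of 8 genes called lower in MCL-like primaries, as log2(CPM + 1) with TMM scaling, with 1 point per mouse, for MCL-like (red, n = 4), Vpreb1-low non-MCL (blue, n = 3) and Vpreb1-high non-MCL primaries (grey, n = 6), and a black line at the mean. Reln, Bdh1, Nt5dc2 and Bcat1 are low in the MCL-like tumours and high in both non-MCL groups except for single Vpreb1-high mice in Reln.

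Myc, the transcription factor that drives growth and ribosome production, had 18.3, 7.35, 29.3 and 12.5 CPM in MCL-like primaries, against 73.4, 60.8 and 66.3 CPM in Vpreb1-low primaries. The groups did not overlap, and it missed the threshold (log2 fold change -1.99, SE 0.43, adjusted p = 0.0539 with edgeR). It was called in 5 of the 17 alternative fits. In Vpreb1-high primaries Myc was at 5.36 to 277 CPM. Transplants of mice with no primary library had 28.2 CPM of Myc in the MCL-like and 19.0 CPM in the non-MCL transplant, so the direction did not repeat there. Of 13 tested Myc targets, 1 was called lower (7.69%, against 0.553% of all tested genes) and 0 higher. All 13 had a negative log2 fold change, and the median was -1.07, against 0.02 over all tested genes. The called one was Cad, the first enzyme of pyrimidine synthesis, at 38.0, 37.0, 48.1 and 52.7 CPM in MCL-like primaries, against 124, 93.5 and 129 CPM in Vpreb1-low primaries (log2 fold change -1.39, SE 0.27, adjusted p = 0.0418), a call lost in every fit that left out a mouse (highest adjusted p 0.110). Ncl, encoding nucleolin, was named after its values were seen, at 1555, 1167, 1249 and 896 CPM in MCL-like primaries, against 4272, 2140.1 and 4113 CPM in Vpreb1-low primaries (log2 fold change -1.53, SE 0.35, adjusted p = 0.0642). Of 22 proliferation genes 0 were called and all 22 were negative, with a median of -0.70. The lowest adjusted p among them was that of Cdc20, an activator of the anaphase-promoting complex, at 148, 102, 115 and 85.0 CPM in MCL-like primaries, against 291, 239.9 and 206 CPM in Vpreb1-low primaries (log2 fold change -1.12, SE 0.28, adjusted p = 0.0818). Mki67, the common proliferation marker, had 255, 329.9, 526 and 586 CPM in MCL-like and 724, 322 and 311 CPM in Vpreb1-low primaries and overlapped between the groups (log2 fold change -0.09, SE 0.41, adjusted p = 0.929). It too was named after its values were seen.

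Promoters are shown for 3 of the 5 genes whose calls held in all 17 alternative fits, from 250 bases before to 50 bases after a start in RefSeq on GRCm38.p6, 5′ to 3′ on the strand of the gene. Capitals mark CACGTG, the E-box that Myc and related factors bind, which reads the same on both strands.
Sox5: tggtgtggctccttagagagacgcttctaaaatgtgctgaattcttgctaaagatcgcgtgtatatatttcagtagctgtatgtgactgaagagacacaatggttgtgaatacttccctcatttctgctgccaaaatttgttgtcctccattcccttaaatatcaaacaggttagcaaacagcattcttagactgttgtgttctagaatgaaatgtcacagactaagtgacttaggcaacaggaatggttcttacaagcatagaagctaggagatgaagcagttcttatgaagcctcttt
Adm: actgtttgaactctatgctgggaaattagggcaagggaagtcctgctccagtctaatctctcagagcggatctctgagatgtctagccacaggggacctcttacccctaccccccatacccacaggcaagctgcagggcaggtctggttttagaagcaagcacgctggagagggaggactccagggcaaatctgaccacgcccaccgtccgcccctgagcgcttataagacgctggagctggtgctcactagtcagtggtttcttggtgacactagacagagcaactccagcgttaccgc
Reln: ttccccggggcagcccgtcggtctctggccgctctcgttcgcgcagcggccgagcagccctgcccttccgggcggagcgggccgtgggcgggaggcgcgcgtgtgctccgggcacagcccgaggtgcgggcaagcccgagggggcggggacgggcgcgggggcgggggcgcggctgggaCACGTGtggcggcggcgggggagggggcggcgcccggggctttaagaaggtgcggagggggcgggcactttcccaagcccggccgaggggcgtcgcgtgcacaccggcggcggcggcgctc
The windows are chr6:143947057-143947356 on the minus strand for Sox5, chr7:110627407-110627706 on the plus strand for Adm and chr5:22344656-22344955 on the minus strand for Reln. The Sox5 start used here lies within the longer annotated gene. The letters CACGTG occurred once, in the Reln window, 71 bases before the start. The window of Reln held 47 CpG pairs and was 80.7% G or C, that of Adm held 9 and was 56.0% G or C, and that of Sox5 held 3 and was 39.7% G or C, against a median of 7 CpG pairs among 32851 starts. The motif stood in the windows of 7 of 79 genes called higher that had one (8.86%), 7 of 55 called lower (12.7%), 2 of 9 Myc targets on the list (22.2%) and 1048 of 8602 tested genes (12.2%). The share among the genes called lower is thus close to that of all tested genes.

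The targeted gene Ccnd2 missed the threshold. It had 1373, 1899, 2212 and 1703 CPM in MCL-like primaries, against 174, 731 and 480.4 CPM in Vpreb1-low primaries. The MCL-like mice all lay above the Vpreb1-low mice, which do not carry the transgene (log2 fold change 1.96, SE 0.47, adjusted p = 0.0720 with edgeR). Among Vpreb1-high primaries, those with the transgene had 1897, 551 and 407 CPM, and those without it had 4.70, 11.1 and 782 CPM. Levels of Ccnd2 in non-MCL primaries with and without the transgene thus overlapped. Whether the counts of Ccnd2 include tags from the transgene was not tested. Ccnd3, another D-type cyclin, had 154, 194, 235 and 192 CPM in MCL-like primaries, against 248, 417 and 257 CPM in Vpreb1-low primaries (log2 fold change -0.67, SE 0.29, adjusted p = 0.256), and Ccnd1, the cyclin of most human mantle cell lymphomas, named after its values were seen, had 86.1, 17.6, 25.7 and 17.4 CPM in MCL-like primaries, against 423, 29.5 and 158 CPM in Vpreb1-low primaries (log2 fold change -2.47, SE 0.86, adjusted p = 0.169). Of 19 genes of the G1 phase 0 were called with edgeR, and their median was -0.09. Trp53 had 4.15, 5.12, 12.8 and 2.83 CPM in MCL-like primaries, against 14.9, 6.94 and 3.46 CPM in Vpreb1-low primaries, at overlapping and low levels. Tags from its 3′ end may lie outside the floxed part, so they do not check the deletion, and of 13 p53 targets 0 were called.

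**Figure D4:**
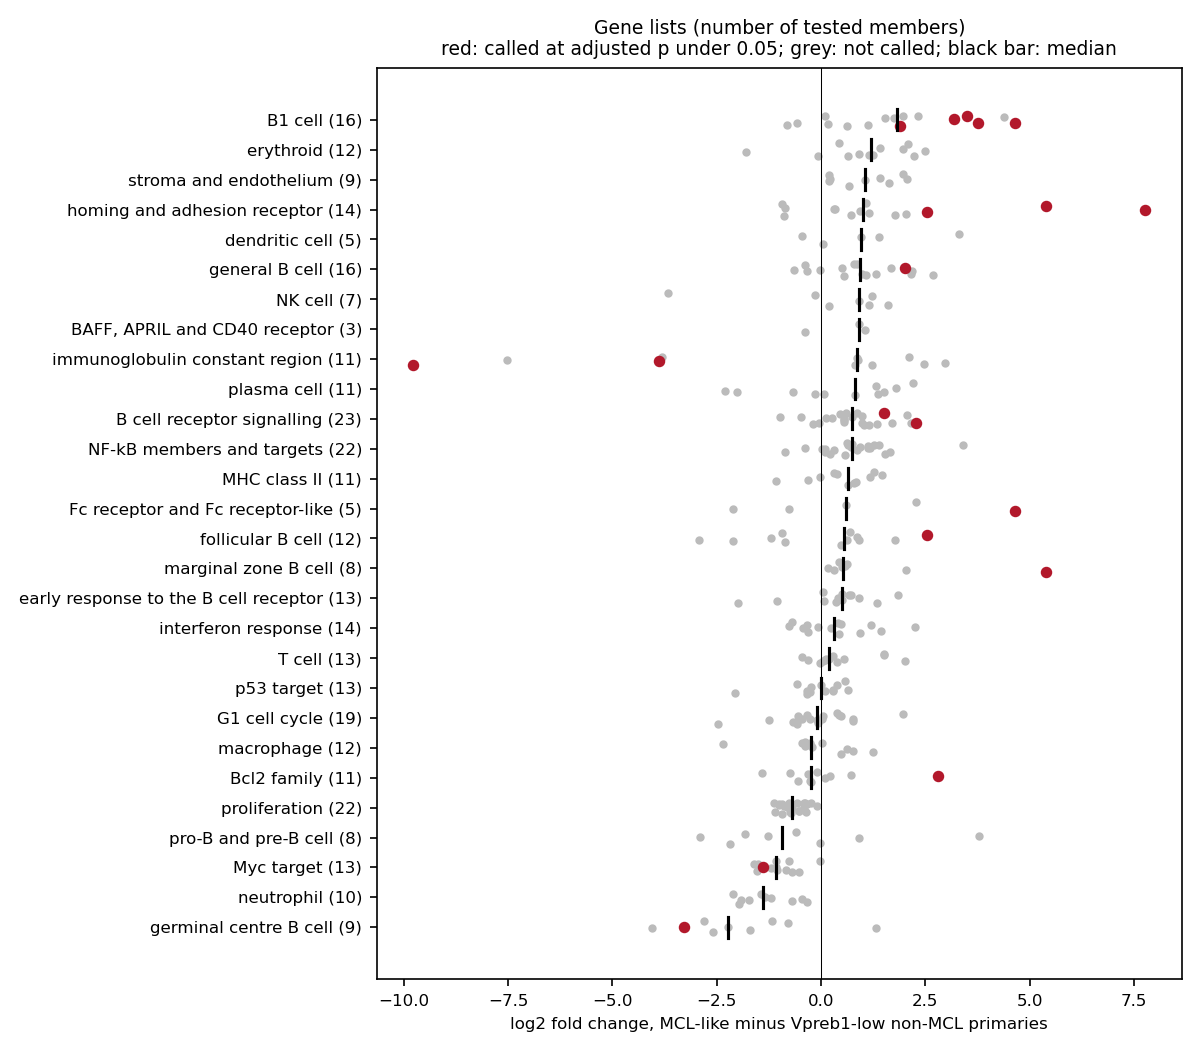
Log2 fold change of each tested member of 28 gene lists, MCL-like minus Vpreb1-low non-MCL primaries, with called members in red, the others in grey and a black bar at the median of the list. Lists are ordered by their median, and the number of tested members stands in brackets. The B1 list holds 5 red points on the positive side, and all Myc target and proliferation points are at or below 0.

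Markers of other cells gave 0 calls with edgeR in the lists of T cells, NK cells, macrophages, dendritic cells, neutrophils, erythroid cells, and stroma and endothelium. The summed level of the erythroid list, mainly haemoglobin, was 20737 to 117743 CPM in MCL-like and 886 to 39126 CPM in Vpreb1-low primaries, and that of the neutrophil list 120.3 to 1015 CPM in MCL-like and 483 to 4567 CPM in Vpreb1-low primaries. All 10 neutrophil genes had negative log2 fold changes, with S100a9 the lowest in adjusted p at 41.1, 138, 355 and 129 CPM in MCL-like primaries, against 299, 186 and 1653 CPM in Vpreb1-low primaries (log2 fold change -2.10, SE 0.85, adjusted p = 0.225). All 9 tested genes of stroma and endothelium had positive ones, led by Col1a1 at 1.41 to 37.3 CPM in MCL-like and 0.288 to 7.36 CPM in Vpreb1-low primaries. The T cell list summed to 320 to 637 CPM in MCL-like and 72.7 to 633 CPM in Vpreb1-low primaries, and Cd3e was at 2.77 to 36.2 CPM in MCL-like and 1.51 to 32.3 CPM in Vpreb1-low primaries. The part of these cells in the results above was not tested. With haemoglobin and immunoglobulin genes left out, 110 genes were called higher and 67 lower. Of 14 interferon response genes 0 were called, and Rsad2 had the lowest adjusted p among them at 74.7, 408, 529 and 158 CPM in MCL-like primaries, against 43.4, 122 and 18.2 CPM in Vpreb1-low primaries (log2 fold change 2.25, SE 0.81, adjusted p = 0.183).

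Further key genes were not called. Slc39a4, a zinc transporter, had 226, 111, 18.8 and 38.9 CPM in MCL-like primaries, against 5.80, 3.58 and 8.65 CPM in Vpreb1-low primaries (log2 fold change 4.06, SE 0.89, adjusted p = 0.0596 with edgeR), and Dram2, linked to autophagy, had 58.1, 47.4, 56.0 and 63.1 CPM in MCL-like primaries, against 24.5, 29.1 and 16.4 CPM in Vpreb1-low primaries (log2 fold change 1.26, SE 0.30, adjusted p = 0.0716). Both separated the groups. Fcrla, an intracellular relative of the Fc receptors in B cells, had 145, 93.9, 169 and 136 CPM in MCL-like primaries, against 194, 298 and 201 CPM in Vpreb1-low primaries (log2 fold change -0.77, SE 0.30, adjusted p = 0.202), with the lower values in MCL-like tumours. Zap70, a kinase of T cells and of some B cell leukaemias, had 2.42, 12.9, 15.8 and 14.6 CPM in MCL-like primaries, against 9.08, 15.6 and 43.5 CPM in Vpreb1-low primaries, with overlap (log2 fold change -0.98, SE 0.67, adjusted p = 0.463). Tnfrsf13b, the receptor TACI for BAFF and APRIL, had 235 to 287 CPM in MCL-like and 85.9 to 185 CPM in Vpreb1-low primaries (log2 fold change 1.06, SE 0.32, adjusted p = 0.121).

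Transplants of mice with no primary library here gave one look at the called genes in libraries outside the comparison, with 1 MCL-like mouse and 1 Ccnd2 non-MCL mouse and so no test. Whether the MCL-like transplant is a tumour separate from MCL-like primary replicate 4 was not tested. Of the 114 genes called higher in the primaries, 84 were at least 2-fold higher in the MCL-like transplant (73.7%, against 15.1% of all tested genes) and 1 was at least 2-fold lower. Of the 65 called lower, 38 were at least 2-fold lower (58.5%, against 15% of all tested genes) and 0 were at least 2-fold higher. The medians of the log2 ratio of CPM plus 1 were 1.89 and -1.41, against -0.03 for all tested genes. Sox5 had 45.7 CPM in the MCL-like transplant and 3.47 CPM in the non-MCL transplant, and Adm had 244 CPM in the MCL-like and 0.401 CPM in the non-MCL transplant. Il5ra had 148 CPM in the MCL-like and 5.74 CPM in the non-MCL transplant, and Bcl2 had 408 CPM in the MCL-like and 96.7 CPM in the non-MCL transplant. Ighg1 had 2.93 CPM in the MCL-like transplant and 3487 CPM in the non-MCL transplant, where Ighm was at 17.4 CPM. Neurod4 was among the genes that did not differ by 2-fold, with 2.38 CPM in the MCL-like and 2.003 CPM in the non-MCL transplant, and so was Malt1 with 81.6 CPM in the MCL-like and 53.8 CPM in the non-MCL transplant.

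The transplants carry limits of their labels. In the MCL-like transplant all 12 heavy chain V counts were of Ighv1-69, as were all 10 in MCL-like primary replicate 4 (exact 95% intervals 73.5 to 100% and 69.2 to 100%, covering counting error only). The transplants of the mouse of replicate 4 also held Ighv1-69 alone, in 10 and 6 counts. Whether these tumours are independent was not tested, so the shares above may not come from a separate tumour. The MCL-like transplants are named non-MCL in their titles and were grouped by the immunophenotype field. In the non-MCL transplant, labelled with the transgene, Ccnd2 was at 66.9 CPM, below each of the 7 primaries compared. In the other MCL-like primaries, Ighv1-53 made up 10 of 11 counts of replicate 1 and Ighv11-2, a segment used by B1 cells, 38 of 38 of replicate 2. Replicate 3 had only 7 such counts, of which 57.1% were of Ighv1-64 (exact 95% interval 18.4 to 90.1%) and 42.9% of Ighv11-2. This last segment also occurred in Vpreb1-high primaries. It made up 31.6% of 19 counts in p53-only replicate 4 and the only count of Ccnd2 non-MCL replicate 1. In the Vpreb1-low libraries, with 3 to 13 counts each, the leading segment made up 22.2 to 66.7%, and the groups were not compared at these counts.

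**Figure D5:**
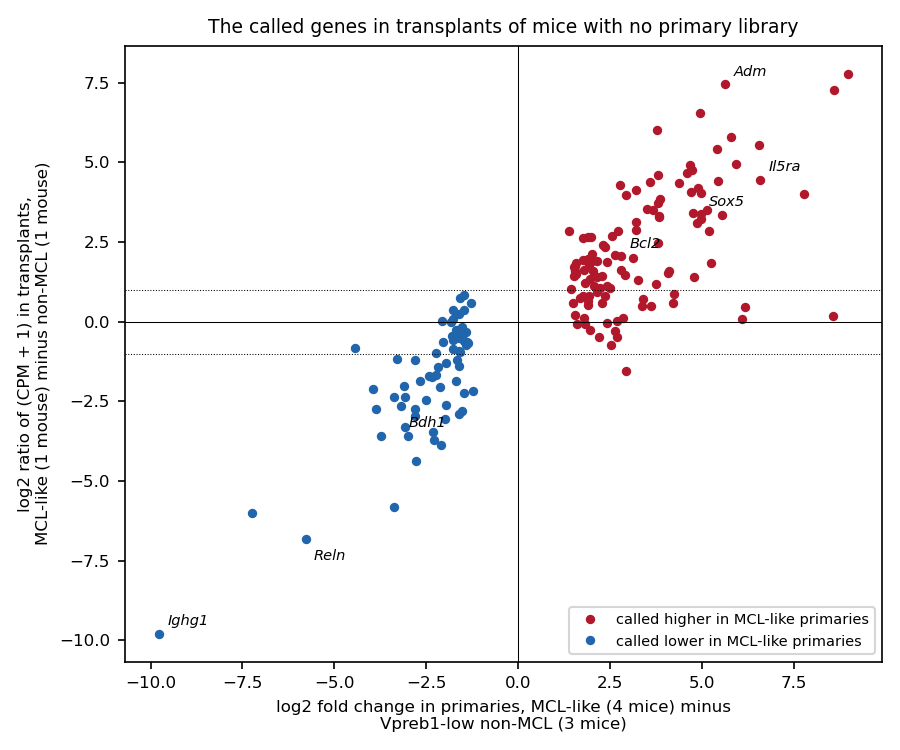
The 179 called genes, with the log2 fold change in primaries (MCL-like, 4 mice, minus Vpreb1-low non-MCL, 3 mice) on the horizontal axis and the log2 ratio of CPM + 1 in transplants (MCL-like, 1 mouse, minus Ccnd2 non-MCL, 1 mouse) on the vertical axis, and dotted lines at 2-fold. Of the genes called higher (red) 84 of 114 lie above the upper dotted line, and of those called lower (blue) 38 of 65 lie below the lower one.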

How the data were processed

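RNA of fresh lymphoma cells was turned into libraries with a QuantSeq 3′ mRNA-seq reverse kit, per the labels' protocols. The submitters' processing notes name FastQC, STAR and the build GRCm38. Not given in the sources used here are the counter, its strand setting, the annotation and any tool version. The authors deposited raw counts for each Ensembl gene and library, which were used unchanged. Gene symbols came from GENCODE M21, which matched 52489 of 52636 identifiers.

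Counts of the libraries that share a mouse were summed. The 4 MCL-like and 3 p53-only mice entered 1 model of edgeR 4.0.16 (R 4.3.3), tested by its quasi-likelihood F statistic after TMM scaling and its default low-count filter, with robust shrinkage. The threshold was an adjusted p under 0.05 after Benjamini-Hochberg adjustment over all tested genes, and every adjusted p in the text is from this edgeR test unless an alternative is named. Each SE is the size of the log2 fold change over the square root of F. Levels are TMM-scaled CPM, computed here, except Vpreb1 in the choice of members, which is CPM of the library total. Alternatives were other scalings, DESeq2 1.42.0, limma-voom (limma 3.58.1), no low-count filter, a fit over 13 primary mice, single libraries of the paired mouse, a Vpreb1 limit of 500 CPM, and leaving out each mouse. The fits were run on simulated data with planted changes. The check that had to pass used a small set spread, so it tests the coding and not power or error in these tumours. Chi-square over degrees of freedom was 39.62 or more in each of the 28 pairs of the 8 libraries, so none were alike within counting noise.

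The genes named are the key genes, the 12 largest increases and the 12 largest decreases that passed with a mean of 10 CPM or more in the group that was higher, no overlap between the groups of mice and an ordinary symbol, and up to 3 called members per list, or the member with the lowest adjusted p. Any member of the B cell, immunoglobulin constant and MHC class II lists may also be named. Members and lists were chosen with earlier results of these data known, so lists are described by counts and medians only. The labels name a mouse for each library and give no cage, litter or day, so p-values measure the spread between mice. Some genes of the lists are not reported here by name.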

Additional observations from a re-analysis of the deposited data

Results flagged for a closer look

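Among 62 named genes, 7 had 1 MCL-like mouse far from the other 3 by Dixon's criterion on log2(CPM + 1), where chance flags about 1 in 20 groups. Ackr2 was low in replicate 1, at 8.30 CPM against 33.7 to 40.5 CPM in the others, and Ahnak2 was low in replicate 3, at 23.7 CPM against 81.2 to 87.3 CPM. Replicate 1 was also apart for Malt1, at 212 CPM against 153 to 156 CPM, for St8sia6, at 262 CPM against 50.8 to 64.5 CPM, and for Zap70, at 2.42 CPM against 12.9 to 15.8 CPM. Replicate 4 was high for Fras1, at 599.96 CPM against 192 to 225 CPM, and for Bcl2, at 873 CPM against 289 to 345 CPM. Replicate 1 is the only mesenteric tumour of the group, and replicate 4 the only one with Vpreb1 above the limit, and the part of either in these values was not tested. The p53-only group of 3 mice was too small for this criterion.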

How the results depend on the processing

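No paired analysis was possible because the labels give no replicate numbers and no mouse contributed to both groups. Among the 62 named genes 0 changed direction with a call under any of 17 alternatives. Of the 38 called, 33 lost their call under at least 1 of them. The counts of genes called higher and lower stayed within 1.5 times of 114 and 65 with RLE size factors, without haemoglobin and immunoglobulin genes, and with the first library of the paired mouse alone. Genes called higher numbered 61 with library size scaling, 563 with DESeq2, 60 with limma-voom, 279 with no low-count filter, 49 in the shared fit over 13 primary mice and 49 with the second library of the pair alone. Genes called lower numbered 412 with DESeq2, 35 with limma-voom, 210 with no low-count filter, 23 with the second library and 99 at a Vpreb1 limit of 500 CPM, which adds the thymoma. Leaving out each mouse gave 6 to 128 genes higher and 4 to 51 lower (10 without MCL-like replicate 4), the fewest without the mouse of p53-only replicates 2 and 5. DESeq2 called 114 of the 114 genes higher and 64 of the 65 lower, and the causes of these shifts were not tested. The share of genes called higher that were at least 2-fold higher in the MCL-like transplant was 82.0% with library size scaling and 59.1% with DESeq2, and 69.2 to 100% when leaving out each mouse (87.0% without p53-only replicate 1). The share of genes called lower that were at least 2-fold lower there was 35.7% with DESeq2, 71.4% with limma-voom, 44.8% with no low-count filter, 82.6% with the second library and 42.4% at the limit of 500 CPM, and 74.5 to 100% when leaving out each mouse. The 3 p53-only mice limit the precision, and genes with few counts, such as Neurod4 and Ackr2, are known only by a bound or a wide interval.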
